A study of Drosophila melanogaster with 33 samples.

Results

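The JAK-STAT pathway was followed through 7 genes: the ligand genes os (now called upd1), upd2 and upd3, the receptor gene dome, the kinase gene hop, the transcription factor gene Stat92E and the feedback gene Socs36E. They were chosen by symbol, and all 7 were found among the 16727 genes of the count tables, in 33 libraries of eye-antennal imaginal discs of Drosophila melanogaster. These discs are the larval epithelia that give rise to the eye, the antenna and the head capsule. The study compared discs in which Yorkie (Yki), the growth-promoting co-activator restrained by the Hippo pathway, was hyperactive with their controls, and asked in one set of clones whether the effects need Scalloped (Sd), the DNA-binding partner of Yki.

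In Drosophila the Unpaired (Upd) proteins encoded by os, upd2 and upd3 are secreted cytokines. They bind the receptor Domeless (Dome), which carries the Janus kinase Hopscotch (Hop), and Hop phosphorylates Stat92E, which then enters the nucleus and switches on genes. One of these genes is Socs36E, whose product dampens the signal, so that its transcript is widely used as a read-out of the pathway. In the eye disc the pathway is known for promoting growth, and the ligands are known to be induced in overgrowing and wounded discs.

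The 8 groups were as follows. In eyFLP wts- discs (2 libraries) the eye-specific recombinase ey-FLP, in y w animals, made tissue homozygous for wts149 on an FRT82B chromosome, set against a cell-lethal (cl-) homologue. The eyFLP ctrl discs (3 libraries) had the same FRT82B cl- chromosome over FRT82B without the mutation. In optix yki3SA discs (2 libraries) optix-Gal4 drove UAS-yki3SA, a Yki protein altered at inhibitory phosphorylation sites, in w/y v animals, and in optix ctrl discs (3 libraries) the same driver expressed a hairpin against luciferase (UAS-lucRNAi). The MARCM technique, which marks mitotic clones with GFP, gave the groups MARCM yki3SA sd- (5 libraries), MARCM yki3SA (6), MARCM sd- (5) and MARCM ctrl (7). In sequencing run 1 all MARCM clones were made on FRT19A with an Act 5C Gal4 flip-out driver and ey-FLP. The sd- clones carried the allele sd47M on that chromosome and the yki3SA clones carried UAS-yki3SA. In run 2 the sd- and yki3SA sd- genotypes were the same by label, but the single yki3SA library and the 2 ctrl libraries came from FRT42D clones with a tub-Gal4 driver. All larvae were kept at 25°C and dissected 5 days after egg laying, and each sample pooled at least 30 whole discs. RNA of disc cells that lie outside the clones or outside the domain of the driver is part of each library, and in such bulk samples fewer cells of a type and less RNA per cell cannot be told apart.

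Depth was 4874192 to 15273835 counts in the 26 libraries of run 1 and 17071389 to 19128356 in the 7 of run 2. Levels below are CPM, which are counts scaled to a common library size by TMM over all 33 libraries, counted from the 3' ends of transcripts. Changes are log2 fold changes ± standard error, and a gene was called where its adjusted p in edgeR's quasi-likelihood test, over all genes tested, was under 0.05. No source used here says that replicates came from separate crosses, so the p-values speak to the spread among these libraries, which may be technical. The genes of eye and antennal identity were detected in every group, and none of the 10 fixed for that check was at 0 in a whole group.

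The labels were checked with the manipulated genes. The yki level was 2096 CPM in the run 2 yki3SA library, against 64.6 and 62.5 CPM in run 2 ctrl. In the run 2 yki3SA sd- libraries, whose label also gives UAS-yki3SA, it was 96.2 and 107 CPM, against 63.3 and 62.3 CPM in run 2 sd-. No yki3SA sd- library thus came near the level of the run 2 yki3SA library, and the part of the yki level in the yki3SA sd- results was not tested. In run 1 yki was at 2.63 to 9.92 CPM in MARCM yki3SA sd-, 43.1 to 78.4 CPM in MARCM yki3SA and 19.0 to 58.4 CPM in MARCM ctrl, and the ranges of yki3SA and ctrl overlapped. The optix model gave 11.1 and 52.6 CPM in yki3SA, against 0 to 19.5 CPM in ctrl. Transcript of wts was present in eyFLP wts- discs, at 269 and 236 CPM against 166 to 178 CPM in eyFLP ctrl, and sd stood at 276 to 382 CPM in run 1 sd- discs against 379 to 456 CPM in ctrl. Whether the wts149 and sd47M lesions touch the counted 3' ends was not tested, so these levels do not check the mutant labels.

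Of the 33 libraries, 4 stood apart from their groups. The run 1 MARCM yki3SA sd- libraries 1 to 3 and run 1 MARCM sd- library 3 differed from other libraries of their group and run by a chi-square per degree of freedom of 87.4 to 206, against 2.15 to 39.98 for all other pairs. In these 4 libraries yki was at 5.07, 2.63, 9.92 and 1.36 CPM, against 63.6 and 68.7 CPM in the other run 1 sd- libraries. The male-specific RNA roX1 stood at 243 CPM in run 1 sd- library 3, against 4.33 and 4.85 CPM in the other run 1 sd- libraries. It stood at 129 to 580 CPM in the eyFLP and optix libraries and at 0.166 to 31.7 CPM in all other MARCM libraries. Transcript of the gene y stood at 13.7 CPM in run 1 sd- library 3 and at 14.6 and 15.9 CPM in run 2 sd-. In all other MARCM libraries y was at 0.0658 to 3.28 CPM. In the optix model y was at 18.5 to 35.3 CPM in ctrl, against 0.135 to 0.504 CPM in yki3SA. The part of such differences in background in the results was not tested. Markers of hemocytes, the blood cells of the larva, summed to 786, 767 and 340 CPM in the run 1 yki3SA sd- libraries. Calls of the 7 genes, and the list counts, in yki3SA sd- against yki3SA are also given without these 4 libraries, a choice made after seeing the data. The yki3SA sd- group then consists of its 2 run 2 libraries, which differ from run 2 yki3SA and ctrl in chromosome arm and driver as well.

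Yki hyperactivity went with raised expression of the ligand genes in the eyFLP and MARCM models, while in discs labelled yki3SA sd- the ligand genes were called lower than in yki3SA, and yki transcript was lower there in each run as well. In eyFLP wts- discs 5 of the 7 genes were called higher than in eyFLP ctrl, namely os, upd2, upd3, dome and Socs36E, and none lower, while 10.6% of all 8693 genes tested were called higher and 13.5% lower. In MARCM yki3SA discs 5 of the 7, again os, upd2, upd3, dome and Socs36E, were called higher than in MARCM ctrl and none lower, against 17.3% higher and 17.1% lower among 8927 genes tested. In optix yki3SA discs 1 of the 7, upd3, was called higher than in optix ctrl and none lower, against 9.02% and 10.5% of all genes. In MARCM sd- against ctrl none of the 7 was called, where 0.0784% of genes were called higher and 0.0224% lower, and 0 of the 7 had an unadjusted p under 0.05. In MARCM yki3SA sd- against sd- none was called either, against 0.0336% higher and 0.101% lower. There 2 of the 7, hop and dome, had an unadjusted p under 0.05 in edgeR's test, both higher in yki3SA sd- (adjusted p = 0.180 each). DESeq2 called none of the 7 in either of these comparisons. In MARCM yki3SA sd- against yki3SA, 4 of the 7 were called lower (os, upd2, upd3 and Socs36E) and hop was called higher, against 28.1% lower and 24.9% higher among all genes.

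**Figure D1:**
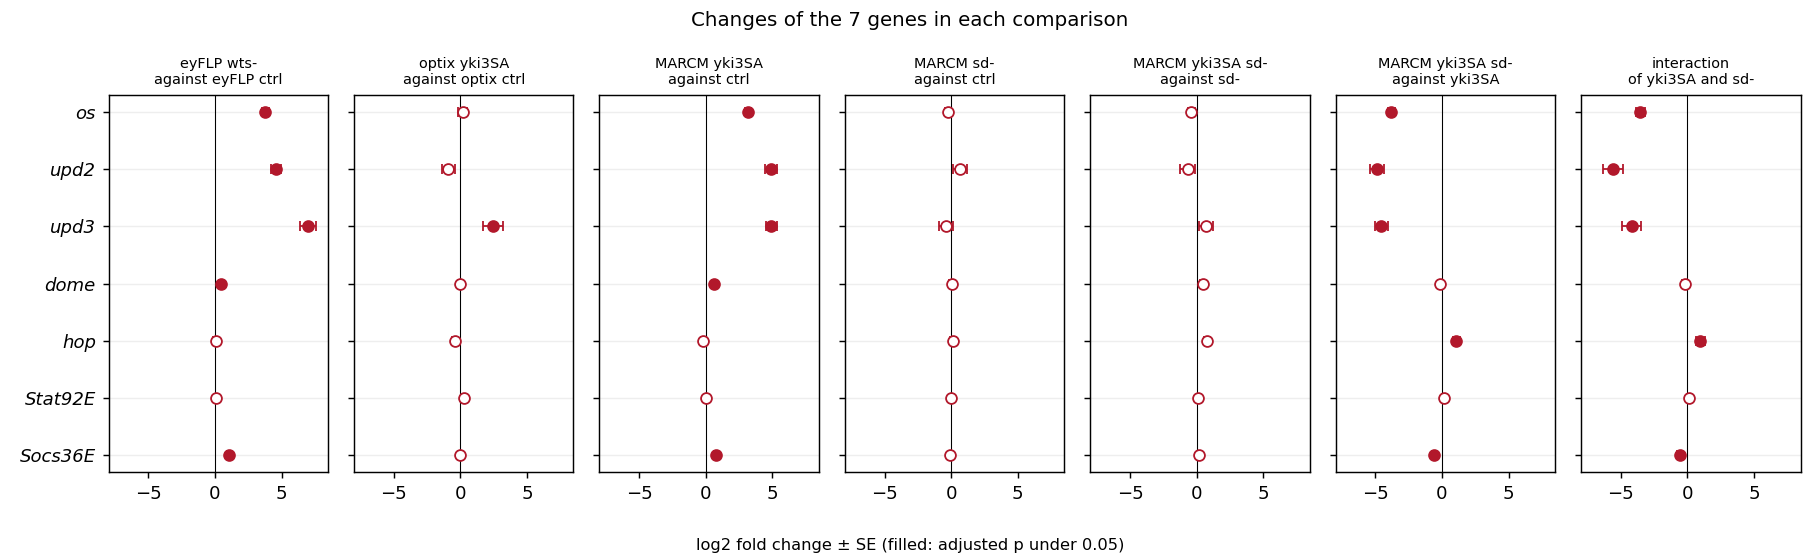
Log2 fold changes (horizontal axis, ± standard error) of the 7 genes in the 6 comparisons of groups and in the interaction of yki3SA and sd-, from edgeR. Filled points have an adjusted p under 0.05. The 3 ligand genes lie to the right in the eyFLP and MARCM yki3SA panels and to the left in the panels of yki3SA sd- against yki3SA and of the interaction.

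Among the ligands, os encodes Upd1, the ligand that patterns embryo and eye. In the eyFLP model os stood at 34.6 and 25.1 CPM in wts- discs, against 2.36, 1.58 and 2.42 CPM in ctrl discs. The groups did not overlap, and the change was 3.79 ± 0.29 (adjusted p = 9.76e-10). In run 1 of the MARCM model os stood at 25.3, 21.2, 22.9, 21.3 and 20.7 CPM in yki3SA discs, against 3.54, 2.71, 3.72, 1.91 and 3.36 CPM in ctrl discs. In run 2 the single yki3SA library had 52.0 CPM, against 3.09 and 3.66 CPM in ctrl. Every MARCM yki3SA library was thus above every ctrl library, and the change over both runs was 3.16 ± 0.21 (adjusted p = 7.41e-11). The optix model differed: os was at 4.33 and 3.02 CPM in yki3SA discs, against 3.50, 4.17 and 2.17 CPM in ctrl discs. These values overlapped, and the change of 0.16 ± 0.31 was not called (adjusted p = 0.761).

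Where sd was mutant, os stayed low. It stood at 2.05, 2.85 and 1.79 CPM in run 1 yki3SA sd- discs and at 2.00 and 1.84 CPM in run 2. In sd- discs without yki3SA it stood at 2.82, 2.73 and 2.72 CPM in run 1 and at 2.15 and 3.18 CPM in run 2. The yki3SA sd- values lay far below the yki3SA values and next to the sd- values. The change was -3.80 ± 0.25 in yki3SA sd- against yki3SA (adjusted p = 9.24e-11), and -0.38 ± 0.25 against sd- (adjusted p = 0.320). The interaction, which is the yki3SA response in sd- clones minus the response without sd-, was -3.55 ± 0.33 (adjusted p = 5.10e-08). With the 4 libraries that stand apart left out, the change against yki3SA was -4.16 (adjusted p = 2.60e-08) and the interaction -3.82 (adjusted p = 6.16e-07).

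The ligand gene upd2 encodes a secreted Upd protein that is also known as a fat-body signal of the fed state. The eyFLP wts- discs had upd2 at 20.4 and 13.7 CPM, against 0.656, 0.564 and 0.849 CPM in ctrl discs. The change was 4.58 ± 0.34 (adjusted p = 7.88e-10), with no overlap. In run 1 MARCM yki3SA discs upd2 stood at 8.28, 6.40, 7.31, 8.69 and 9.27 CPM, against 0.186, 0.271, 0.109, 0.221 and 0.192 CPM in ctrl discs. In run 2 the yki3SA library had 5.14 CPM, against 0.658 and 0.321 CPM in ctrl. All yki3SA libraries were again above all ctrl libraries, and the change was 4.92 ± 0.46 (adjusted p = 1.44e-08). Counts in the ctrl libraries were few, at 10 over the 5 run 1 libraries, against 371 over the 5 yki3SA libraries. The ratio of the summed counts per depth was 41.7, with a 95% interval of 22.4 to 87.6 that covers counting error only. Levels of upd2 in the optix model were 0.676 and 0.202 CPM in yki3SA discs, against 0.680, 0.642 and 0.977 CPM in ctrl discs, and the change of -0.90 ± 0.50 was not called (adjusted p = 0.265).

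In the sd mutant clones upd2 was close to the limit of counting. It stood at 0.121, 0 and 0 CPM in run 1 yki3SA sd- discs, a single count in all, and at 0.801 and 0.382 CPM in run 2. In sd- discs it stood at 0.113, 0.471 and 0.906 CPM in run 1 and at 0.662 and 0.469 CPM in run 2. Against yki3SA the summed run 1 level was 172 times lower in yki3SA sd-, with a counting interval of 30.8 to 6830, and the fitted change over both runs was -4.90 ± 0.54 (adjusted p = 1.84e-07). In run 2, where 35 counts stood against 124, the level was 8.63 times lower (5.89 to 12.9). The interaction was -5.58 ± 0.73 (adjusted p = 4.51e-06). Leaving out the 4 libraries that stand apart gave -4.00 against yki3SA (adjusted p = 8.99e-06) and an interaction of -4.45 (adjusted p = 3.23e-05). Against sd- the change was -0.66 ± 0.56 (adjusted p = 0.441). In run 1 alone it was -2.99 and called (adjusted p = 0.0390), which rests on that single count in libraries that stand apart.

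The third ligand gene, upd3, is known for its induction by wounds and infection. In eyFLP wts- discs upd3 stood at 11.7 and 12.4 CPM, against 0, 0.226 and 0 CPM in ctrl discs. The 212 counts in wts- stood against 2 in ctrl, a ratio of 149 with a counting interval of 40.7 to 1238, and the fitted change was 6.98 ± 0.59 (adjusted p = 5.38e-09). In run 1 MARCM yki3SA discs upd3 stood at 8.28, 6.89, 8.27, 10.5 and 12.2 CPM, against 0.0932, 0.542, 0.547, 0.441 and 0.192 CPM in ctrl discs. The run 2 values were 9.37 CPM in yki3SA and 0.395 and 0.0963 CPM in ctrl. No yki3SA library overlapped with a ctrl library, and the change was 4.91 ± 0.42 (adjusted p = 3.36e-09).

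In the optix model upd3 was the ligand gene that passed the test. It stood at 0.947 and 0.504 CPM in yki3SA discs, against 0.0972, 0.161 and 0.109 CPM in ctrl discs. The groups did not overlap, but the values rest on 12 counts against 3, a ratio of 5.94 with a counting interval of 1.60 to 32.8. The fitted change of 2.45 ± 0.78 was called (adjusted p = 0.0314), and was no longer called with limma-voom (adjusted p = 0.0924) or without any 1 of 4 of the 5 libraries (adjusted p 0.0549 to 0.140). Even the higher optix yki3SA value lay below the lowest upd3 value of the MARCM yki3SA and eyFLP wts- libraries, 6.89 CPM.

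In yki3SA sd- discs upd3 stood at 0.242, 0 and 0.717 CPM in run 1 and at 0.367 and 0.486 CPM in run 2. In sd- discs it stood at 0.113, 0.376 and 0 CPM in run 1 and at 0.298 and 0.268 CPM in run 2. The change was -4.55 ± 0.48 against yki3SA (adjusted p = 8.19e-08) and 0.72 ± 0.54 against sd- (adjusted p = 0.383). The interaction was -4.19 ± 0.70 (adjusted p = 9.53e-05). When these were computed without the 4 libraries that stand apart, the values were -4.30 against yki3SA (adjusted p = 1.92e-06) and -4.17 for the interaction (adjusted p = 6.82e-05).

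**Figure D2:**
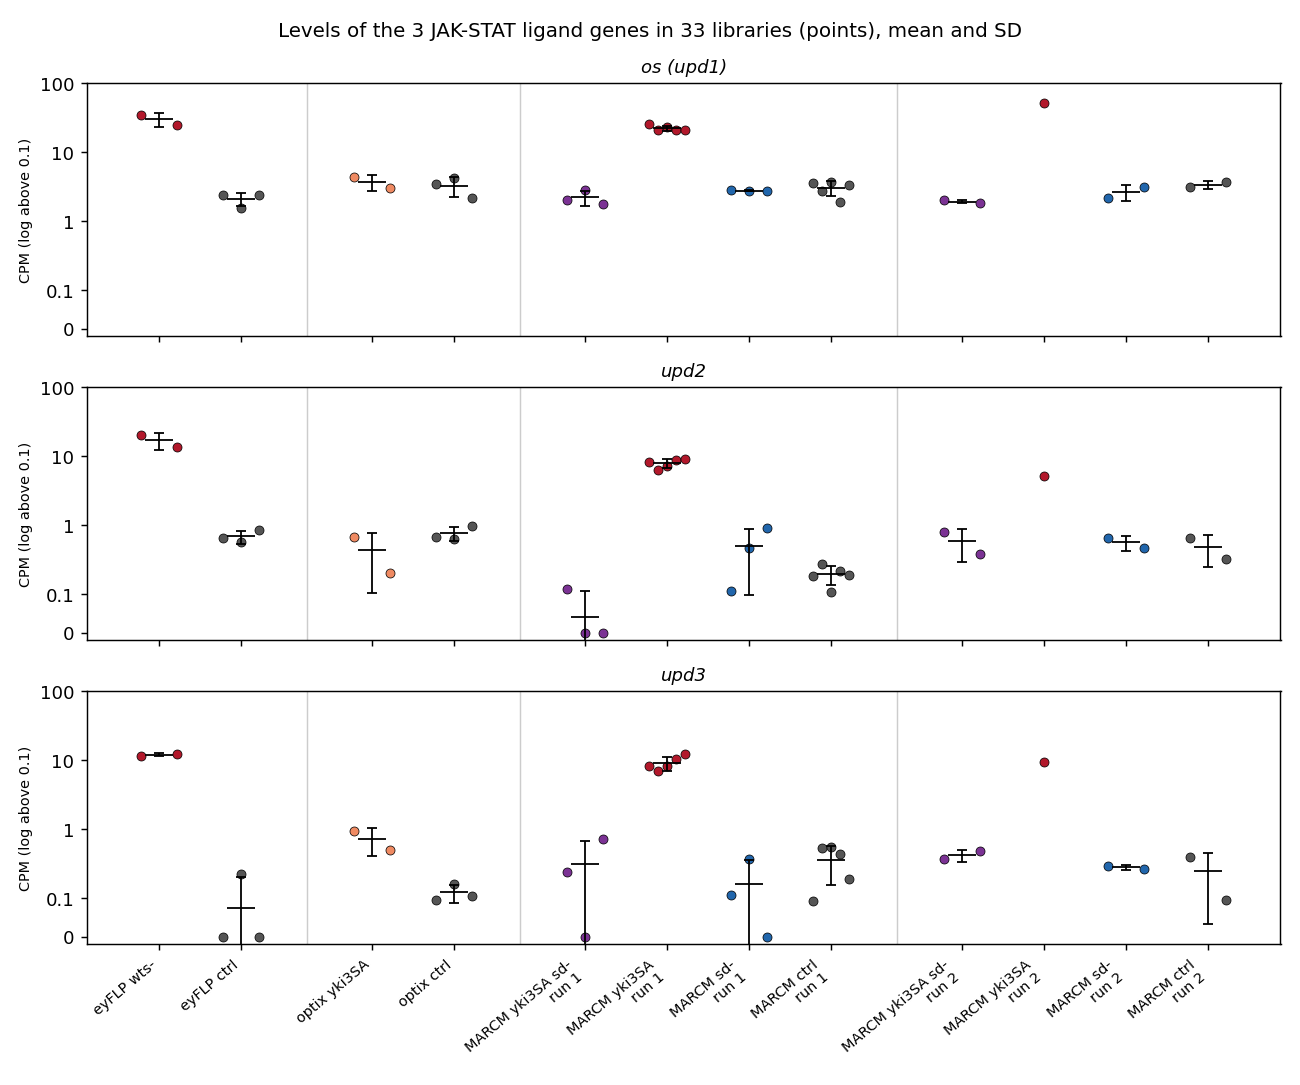
Levels of os, upd2 and upd3 (CPM, linear up to 0.1 and logarithmic above it) in each of the 33 libraries, by group and, for MARCM, by sequencing run. Points are libraries, and the bars give mean and SD where a group has more than 1 library. The 8 eyFLP wts- and MARCM yki3SA libraries have 20.7 to 52.0 CPM of os, and the other 25 have 1.58 to 4.33 CPM.

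Over the whole series each ligand gene split the libraries without overlap into the 8 libraries of eyFLP wts- and MARCM yki3SA and the other 25. The ranges were 20.7 to 52.0 CPM against 1.58 to 4.33 CPM for os, 5.14 to 20.4 CPM against 0 to 0.977 CPM for upd2, and 6.89 to 12.4 CPM against 0 to 0.947 CPM for upd3. Among the other 25 libraries upd2 had fewer than 10 counts in 19 and upd3 in 22, so that differences among those groups were not detectable at this depth unless large. In the order of group means by run, os ranked highest in run 2 MARCM yki3SA (52.0 CPM, a single library), then in eyFLP wts- (29.9 ± 6.72 CPM, SD, n = 2) and run 1 MARCM yki3SA (22.3 ± 1.87 CPM, n = 5). The ranges of eyFLP wts- and run 1 MARCM yki3SA overlapped, and below them every neighbour in the order overlapped with the next. For upd2 the order was eyFLP wts- (17.1 ± 4.74 CPM), run 1 MARCM yki3SA (7.99 ± 1.14 CPM) and run 2 MARCM yki3SA (5.14 CPM), with no overlap among them. For upd3 it was eyFLP wts- (12.1 ± 0.561 CPM), run 2 MARCM yki3SA (9.37 CPM) and run 1 MARCM yki3SA (9.21 ± 2.09 CPM). The run 1 MARCM yki3SA range, which reached 12.2 CPM, overlapped with run 2 and with eyFLP wts-.

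The 3 ligand genes lie in one cluster on the X chromosome. In the BDGP6 annotation of the dm6 genome upd2 is at X:18240654-18243284 on the minus strand, upd3 at X:18277233-18284596 on the plus strand and os at X:18305354-18309291 on the minus strand, within 68638 bp. The same interval holds 4 other annotated genes. Of these CG15059, a protein-coding gene at X:18258551-18259517 between upd2 and upd3, was singled out after its values were seen. It stood at 1.11 to 2.09 CPM in eyFLP wts-, 28 counts in all, against no counts in eyFLP ctrl, and was called higher (adjusted p = 0.000860). In MARCM yki3SA it stood at 5.90 to 10.96 CPM in run 1 and 4.11 CPM in run 2, against 0 to 0.384 CPM and no counts in ctrl (change 6.98 ± 0.82, adjusted p = 4.02e-07). In yki3SA sd- it stood at 0 to 3.28 CPM in run 1 and 0 to 0.0347 CPM in run 2, a change of -4.14 ± 0.76 against yki3SA (adjusted p = 0.000136). Its interaction was not called (-3.76 ± 2.48, adjusted p = 0.255), though it was without the 4 libraries that stand apart (-6.76 ± 2.17, adjusted p = 0.0214). There the fitted change against yki3SA, -7.08 ± 0.97 (adjusted p = 8.99e-06), rests on 1 count in yki3SA sd-. With 2 counts in optix yki3SA and 2 in optix ctrl it was not called (adjusted p = 0.861). The noncoding genes CR45607, CR45613 and CR15061 had 8, 57 and 2 counts over all 33 libraries. Of the 57 counts of CR45613, 49 fell in MARCM yki3SA and 4 in eyFLP wts-.

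The ligands did not keep 1 ratio among themselves. In eyFLP wts- os made up 51.9% and 49.0% of the summed counts of the 3 ligand genes, upd2 30.6% and 26.8%, and upd3 17.5% and 24.3% (raw counts not corrected for where 3' reads fall). In run 1 MARCM yki3SA the shares were 49.1 to 61.4% for os, 18.6 to 22% for upd2 and 19.8 to 28.9% for upd3. In the run 2 yki3SA library they were 78.2%, 7.73% and 14.1%. The os share was thus higher and the upd2 and upd3 shares lower in that single library than in any of the 7 others, and sequencing run, chromosome arm, driver and yki level cannot be told apart there.

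The receptor gene dome, at X:19676061-19683518 on the minus strand, encodes the only signalling receptor known for the Upd ligands. In eyFLP wts- discs dome stood at 183 and 193 CPM, against 131, 139 and 136 CPM in ctrl discs. The groups did not overlap and the change was 0.45 ± 0.13 (adjusted p = 0.0105), though without wts- library 2 it was not called (adjusted p = 0.0763). In MARCM yki3SA discs dome stood at 235, 219.7, 209.6, 198 and 192 CPM in run 1, against 146, 137, 151, 127 and 139 CPM in ctrl discs. The run 2 values were 209 CPM in yki3SA and 138 and 129.8 CPM in ctrl. All yki3SA libraries were above all ctrl libraries, with a change of 0.62 ± 0.16 (adjusted p = 0.00315). In optix yki3SA discs dome stood at 164 and 145 CPM, within the 159, 184 and 133 CPM of ctrl discs (change -0.05 ± 0.13, adjusted p = 0.832).

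In the sd mutant clones the value of dome depended on which libraries were used. It stood at 231, 330 and 156 CPM in the 3 run 1 yki3SA sd- libraries that stand apart, and at 134 and 121 CPM in run 2. In sd- discs it stood at 133, 133 and 171 CPM in run 1, the last in the library with high roX1, and at 136 and 125 CPM in run 2. Over all libraries dome was not called in yki3SA sd- against yki3SA (-0.11 ± 0.17, adjusted p = 0.581) or in the interaction (-0.15 ± 0.23, adjusted p = 0.640). Without the 4 libraries that stand apart dome was called lower in yki3SA sd- than in yki3SA, by -0.67 (adjusted p = 3.94e-05), and the interaction was -0.59 (adjusted p = 0.000782). In run 2 alone these values were -0.55 (adjusted p = 0.000403) and -0.51 (adjusted p = 0.00397), and in run 1 alone 0.19 (adjusted p = 0.411) and 0.15 (adjusted p = 0.686).

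The kinase gene hop lies at X:11360930-11368098 on the minus strand and encodes the only Janus kinase of the fly. Levels of hop in eyFLP wts- discs were 52.6 and 56.7 CPM, against 47.9, 51.6 and 56.7 CPM in ctrl discs (change 0.05 ± 0.18, adjusted p = 0.896). In MARCM yki3SA discs it stood at 62.4, 57.1, 60.6, 46.9 and 47.1 CPM in run 1 and 67.4 CPM in run 2, against 69.7, 66.9, 64.6, 53.3 and 55.9 CPM and 80.7 and 73.7 CPM in ctrl discs. The groups overlapped in run 1 as a whole, and the change of -0.17 ± 0.22 was not called (adjusted p = 0.605). Within 2 sets of run 1 libraries, seen only afterwards, yki3SA lay below ctrl without overlap. In libraries 1 to 3 hop was at 57.1 to 62.4 CPM, against 64.6 to 69.7 CPM in ctrl. In libraries 4 and 5 it was at 46.9 and 47.1 CPM, against 53.3 and 55.9 CPM. With the replicate block the change was -0.18, again not called (adjusted p = 0.622). Run 2 alone, with its single yki3SA library, gave -0.34. In optix yki3SA discs hop stood at 66.0 and 48.1 CPM, against 75.0, 89.3 and 66.1 CPM in ctrl discs, and both values lay below the ctrl values, without a call (change -0.44 ± 0.18, adjusted p = 0.0912).

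Both calls of hop involved yki3SA sd- discs. There hop stood at 133, 236 and 69.8 CPM in run 1 and at 92.7 and 84.7 CPM in run 2, against 52.0, 61.0 and 90.0 CPM and 85.4 and 77.9 CPM in sd- discs. Against yki3SA the change was 1.08 ± 0.24 (adjusted p = 0.000863), and the interaction was 0.95 ± 0.33 (adjusted p = 0.0374). Without the 4 libraries that stand apart these were 0.35 (adjusted p = 0.0660) and 0.41 (adjusted p = 0.0786), both no longer called, and the interaction was also lost with the replicate block (adjusted p = 0.0722). In run 1 alone they were 1.42 (adjusted p = 0.000699) and 1.32 (adjusted p = 0.0291). In run 2 alone they were 0.56 (adjusted p = 0.000680) and 0.49 (adjusted p = 0.00742), in groups that also differ in chromosome arm and driver. The hemocyte markers summed to 340 to 786 CPM in the run 1 yki3SA sd- libraries, against 99.3 to 235 CPM in run 1 sd- and 55.2 to 64.3 CPM in run 1 yki3SA, and their part in the hop values was not tested.

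The transcription factor gene Stat92E lies at 3R:20535323-20552311 on the minus strand. It stood at 104 and 115.2 CPM in eyFLP wts- discs, against 109.7, 94.9 and 102 CPM in ctrl discs, and these values overlapped (change 0.08 ± 0.10, adjusted p = 0.668). In MARCM yki3SA discs it stood at 91.9, 95.4, 93.2, 96.0 and 86.8 CPM in run 1, against 95.3, 93.5, 97.3, 102 and 97.6 CPM in ctrl discs. The run 2 values were 158 CPM in yki3SA and 134 and 145 CPM in ctrl, and the change over both runs was 0.03 ± 0.08 (adjusted p = 0.852). In optix yki3SA discs Stat92E stood at 124 and 127 CPM, against 106, 93.3 and 107 CPM in ctrl discs. The groups did not overlap, and the change of 0.28 ± 0.10 just missed the threshold (adjusted p = 0.0555), while DESeq2 called it (adjusted p = 0.0350). In yki3SA sd- discs it stood at 95.2, 125 and 113 CPM in run 1 and 141 and 146 CPM in run 2, against 91.5, 102 and 96.9 CPM and 145 and 144 CPM in sd- discs, and was not called in any comparison of the MARCM model. In yki3SA sd- against yki3SA the change was 0.12 ± 0.09 (adjusted p = 0.246), while DESeq2 (0.20, adjusted p = 0.0274), upper-quartile scaling (0.21, adjusted p = 0.0415) and the filter at a mean of 10 CPM (0.21, adjusted p = 0.0346) called it, and without the 4 libraries that stand apart it was 0.01 (adjusted p = 0.930).

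The feedback gene Socs36E lies at 2L:18138675-18152417 on the minus strand, and the antisense noncoding gene CR44478 (2L:18145098-18145499) overlaps it. Socs36E in eyFLP wts- discs stood at 261 and 260.4 CPM, against 129, 120.1 and 127 CPM in ctrl discs. The groups were far apart, and the change was 1.03 ± 0.12 (adjusted p = 7.84e-07). In MARCM yki3SA discs it stood at 209, 198, 191, 186 and 162 CPM in run 1, against 122, 127, 124, 112 and 103 CPM in ctrl discs. The run 2 values were 131 CPM in yki3SA and 80.5 and 58.5 CPM in ctrl. Within each run yki3SA lay above ctrl without overlap, and the change was 0.77 ± 0.12 (adjusted p = 1.84e-05), while run 2 alone, with its single yki3SA library, gave 0.77 without a call (adjusted p = 0.0994). For Socs36E the optix model gave 133 and 112 CPM in yki3SA discs, around the 121, 128 and 126 CPM of ctrl discs (change -0.04 ± 0.12, adjusted p = 0.839).

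In yki3SA sd- discs Socs36E stood at 145, 125 and 119 CPM in run 1 and at 88.5 and 61.3 CPM in run 2. In sd- discs it stood at 111, 92.5 and 148 CPM in run 1 and at 63.8 and 62.9 CPM in run 2. The yki3SA sd- values were below those of yki3SA in each run and overlapped with those of sd- in both runs. The change was -0.63 ± 0.13 against yki3SA (adjusted p = 0.000507; -0.67 without the 4 libraries that stand apart, adjusted p = 0.00254) and 0.20 ± 0.14 against sd- (adjusted p = 0.335). The interaction of -0.57 ± 0.18 was called (adjusted p = 0.0221), but not without the 4 libraries that stand apart (-0.46, adjusted p = 0.0655) nor in run 1 alone (-0.53, adjusted p = 0.0806). It was also lost with the filter at a mean of 10 CPM (-0.47, adjusted p = 0.0569). Run 2 alone, with its single yki3SA library, gave -0.50.

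**Figure D3:**
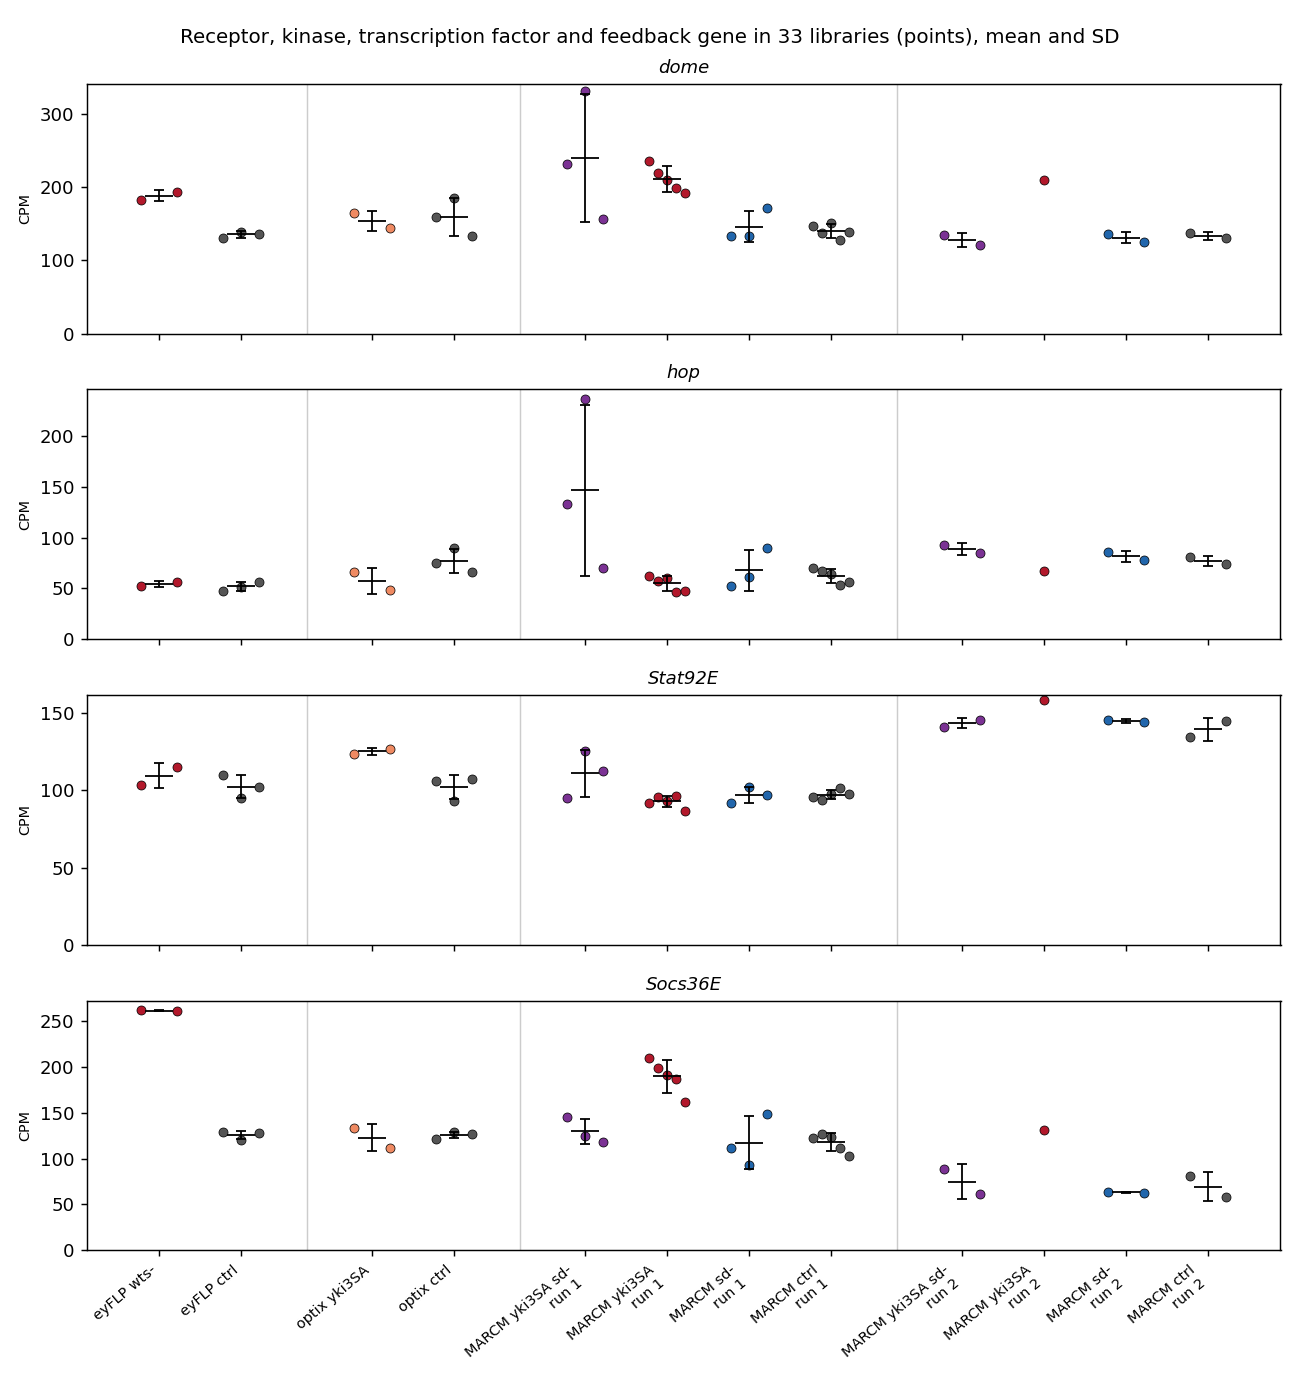
Levels of dome, hop, Stat92E and Socs36E (CPM, linear axes from 0) in each of the 33 libraries, with mean and SD of each group by run. Socs36E and dome are higher in eyFLP wts- and MARCM yki3SA than in their controls, and the 3 run 1 yki3SA sd- libraries spread from 69.8 to 236 CPM in hop and from 156 to 330 CPM in dome.

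In the interaction as a whole, 4 of the 7 genes were called lower (os, upd2, upd3 and Socs36E) and hop was called higher, where 13% of all genes were called lower and 15% higher. The next question was whether the 3 ways of raising Yki activity differed in their effect on these genes. The wts- response minus the MARCM yki3SA response was called for none of the 7, where 3.59% of all genes were called higher and 4.92% lower. Of the 7, 3 had an unadjusted p under 0.05 there in edgeR's test: os (0.92 ± 0.35, adjusted p = 0.127), upd3 (2.33 ± 0.86, adjusted p = 0.110) and Socs36E (0.35 ± 0.15, adjusted p = 0.196), and DESeq2 called none either. The optix yki3SA response was lower than the run 1 MARCM yki3SA response for 4 of the 7, against 8.02% of all genes lower and 7.75% higher. These 4 were os (-2.71 ± 0.38, adjusted p = 2.78e-05), upd2 (-6.16 ± 0.60, adjusted p = 3.62e-07), dome (-0.64 ± 0.16, adjusted p = 0.00772, but 0.0639 without optix yki3SA library 2) and Socs36E (-0.73 ± 0.15, adjusted p = 0.00198). For upd3 that difference was -2.21 ± 1.12 (adjusted p = 0.190). The wts- response was higher than the optix yki3SA response for 4 of the 7, against 3.36% of all genes higher and 4.83% lower. These were os (3.63 ± 0.43, adjusted p = 6.73e-06), upd2 (5.48 ± 0.61, adjusted p = 2.51e-06), upd3 (4.53 ± 1.35, adjusted p = 0.0414) and Socs36E (1.08 ± 0.18, adjusted p = 0.000313). The call for upd3 was lost without any 1 of 8 of the 10 libraries. The models differ in driver, domain, mutated gene and the sexes of the discs, which cannot be told apart here.

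The pathway has other genes, of which 9 were listed: the regulators Socs16D, Socs44A, Ptp61F, Su(var)2-10, ken, Stam, Hrs and BRWD3, and et (also called latran), which encodes a short receptor that dampens signalling. In eyFLP wts- 2 of 8 tested were called higher and none lower, against 10.6% and 13.5% of all genes. These were ken (1.11 ± 0.32, adjusted p = 0.0155), which encodes a repressor of some Stat92E targets, and Ptp61F (0.46 ± 0.12, adjusted p = 0.00751), a phosphatase that acts on Hop and Stat92E. In MARCM yki3SA ken was called higher (0.93 ± 0.15, adjusted p = 2.14e-05), 1 of 9 tested against 17.3% of all genes, and Ptp61F had a change of 0.33 ± 0.14. In the optix model BRWD3 was called lower (-0.67 ± 0.23, adjusted p = 0.0396), 1 of 8 against 10.5% of all genes. The medians over the tested genes of this list were 0.21, 0.09 and 0.19 in the eyFLP, MARCM and optix comparisons, beside -0.01, 0.08 and 0.03 over all genes.

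In yki3SA sd- against yki3SA, 3 of these 9 genes were called lower and 1 higher, against 28.1% lower and 24.9% higher among all genes. The lower ones were ken (-0.77 ± 0.16, adjusted p = 0.000497), Hrs (-0.77 ± 0.31, adjusted p = 0.0390) and Ptp61F (-0.37 ± 0.15, adjusted p = 0.0419), and the higher one was BRWD3 (1.67 ± 0.44, adjusted p = 0.00331). BRWD3 stood at 49.9 to 229 CPM in the run 1 yki3SA sd- libraries, which stand apart, against 19.6 to 27.7 CPM in run 1 yki3SA. In run 2 it stood at 150 to 152 CPM in yki3SA sd- and 167 CPM in yki3SA. Hrs stood at 1.53 to 15.9 CPM in the run 1 yki3SA sd- libraries, against 16.1 to 22.8 CPM in run 1 yki3SA. In run 2 it stood at 42.1 to 50.02 CPM in yki3SA sd-, around the 47.7 CPM of yki3SA. Neither was called without the 4 libraries that stand apart (BRWD3 -0.21 ± 0.18, adjusted p = 0.375, and Hrs -0.10 ± 0.17, adjusted p = 0.674), while ken (-0.96 ± 0.24, adjusted p = 0.00303) and Ptp61F (-0.37 ± 0.13, adjusted p = 0.0338) were called lower and et (1.90 ± 0.57, adjusted p = 0.0107), a gene of at most 7.71 CPM in these libraries, was called higher. The median over the list was -0.30, beside -0.08 over all genes. In sd- against ctrl and in yki3SA sd- against sd- none of the 9 was called.

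Next came 12 genes known to be raised by JAK-STAT signalling in Drosophila, including Ptp61F and ken. In eyFLP wts- 6 of 10 tested were called higher and 1 lower, against 10.6% and 13.5% of all genes. The largest rises were those of chinmo (4.10 ± 0.29, adjusted p = 3.54e-09), a transcription factor gene that JAK-STAT raises in the eye disc and testis, Mmp1 (3.82 ± 0.26, adjusted p = 4.69e-10), a matrix protease gene that JNK signalling also raises, vir-1 (2.51 ± 0.15, adjusted p = 3.35e-11), which viruses induce through the pathway, and Tep2 (2.34 ± 0.28, adjusted p = 1.11e-06), a thioester protein gene. The stress peptide gene TotA was called lower with no counts in wts- and 0.121 to 1.58 CPM in ctrl. In MARCM yki3SA 5 of 9 were called higher, against 17.3% of all genes, among them chinmo (3.14 ± 0.20), Tep2 (2.71 ± 0.21) and vir-1 (2.00 ± 0.13). There 2 were called lower, against 17.1% of all genes, zfh1 (-2.28 ± 0.12) and Tep1 (-2.74 ± 0.41). In optix yki3SA 3 of 10 were called higher, against 9.02% of all genes, namely Tep2 (2.36 ± 0.29), chinmo (1.98 ± 0.27) and zfh1 (1.46 ± 0.22), and none lower. The medians were 0.78, 0.93 and 0.59 in the eyFLP, MARCM and optix comparisons, beside -0.01, 0.08 and 0.03 over all genes.

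In yki3SA sd- against yki3SA 6 of 9 of these genes were called lower and 2 higher, against 28.1% lower and 24.9% higher among all genes, with a median of -0.77 beside -0.08 over all genes. The lower ones included chinmo (-2.66 ± 0.22), Tep2 (-2.20 ± 0.23), vir-1 (-2.06 ± 0.15) and Mmp1 (-1.44 ± 0.32), and the higher ones were Tep1 (3.13 ± 0.43) and zfh1 (2.62 ± 0.13), each with an adjusted p under 0.05 in edgeR's test. When the 4 libraries that stand apart were left out, 5 of 10 were called lower and 2 higher, against 21.9% lower and 20.9% higher among all genes. The gene no longer called was Mmp1 (-1.06 ± 0.49, adjusted p = 0.0908). In run 1 Mmp1 stood at 31.1 to 48.2 CPM in yki3SA sd-, against 124 to 152 CPM in yki3SA. In run 2 the order was the other way, with 51.5 to 81.4 CPM in yki3SA sd- against 43.1 CPM in yki3SA, and that yki3SA value was also below the 47.5 to 49.3 CPM of run 2 ctrl. None of the 9 was called in sd- against ctrl or in yki3SA sd- against sd-.

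The level of vir-1 shows the pattern in single groups. It was 355 to 432 CPM in eyFLP wts- and 228 to 302 CPM in run 1 MARCM yki3SA, against 64.0 to 73.5 CPM in eyFLP ctrl and 58.8 to 65.3 CPM in run 1 MARCM ctrl. In optix yki3SA it was 57.2 and 73.2 CPM, overlapping with 43.8 to 66.3 CPM in optix ctrl. The order differs for chinmo, which was at 390 and 423 CPM in optix yki3SA, against 72.6 to 157 CPM in optix ctrl. Of the ligand genes and Socs36E, only upd3 was called there, on few counts.

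**Figure D4:**
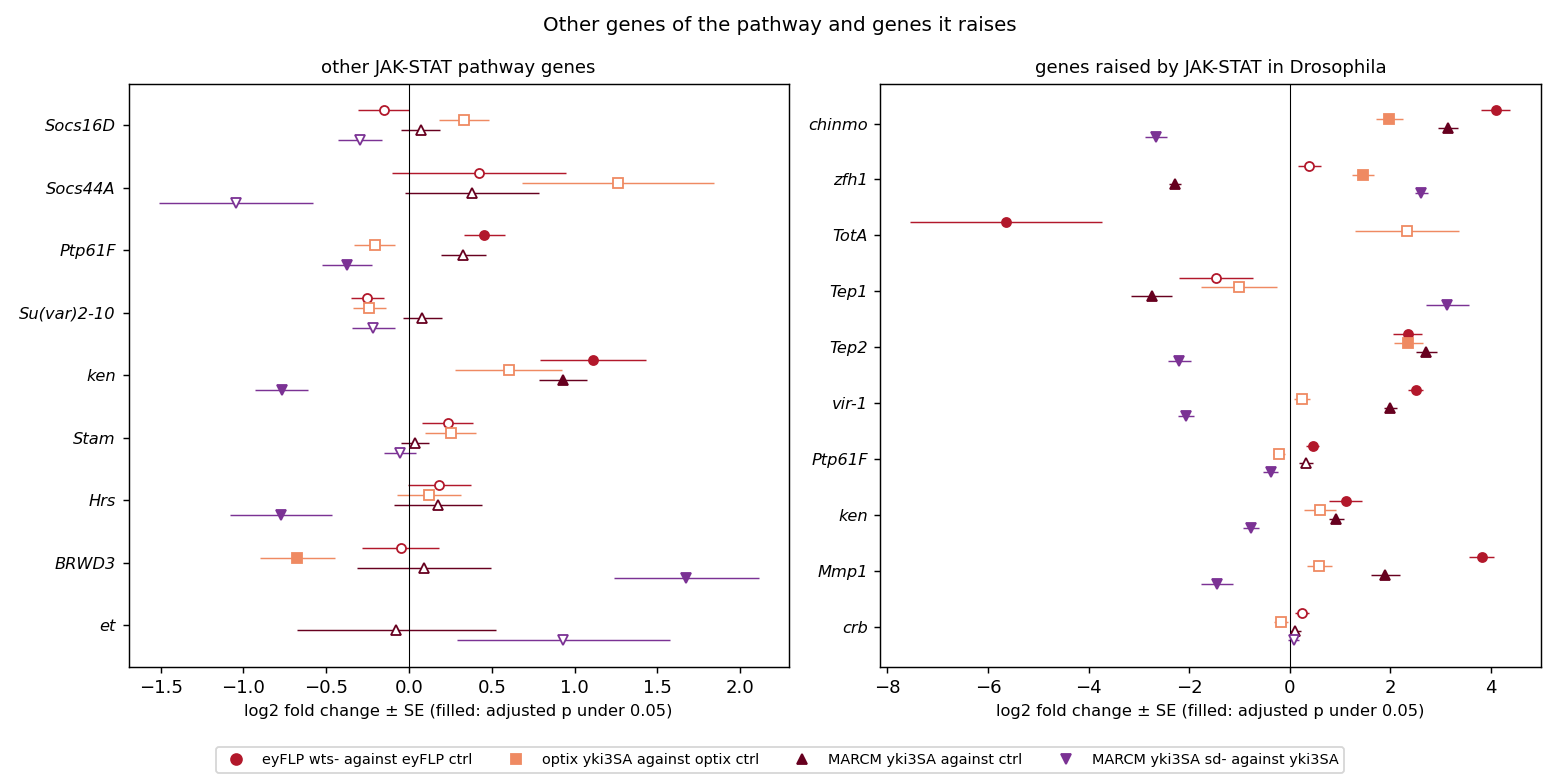
Log2 fold changes (horizontal axes, ± standard error) of the other pathway genes (left) and of genes raised by JAK-STAT (right) that were tested, in 4 comparisons marked by shape and colour. Filled symbols have an adjusted p under 0.05. In yki3SA sd- against yki3SA (downward triangles) chinmo, Tep2, vir-1 and Mmp1 lie left of 0, and in eyFLP wts- and MARCM yki3SA they lie right of it.

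A list of 6 genes that JAK-STAT is known to lower in the eye field had calls in both directions. In eyFLP wts- 3 of 6 were called lower, wg (-1.38 ± 0.30), pnr (-0.85 ± 0.30) and mirr (-0.73 ± 0.13), and 2 higher, caup (1.14 ± 0.21) and ara (0.73 ± 0.21). In MARCM yki3SA 3 of 6 were called lower, pnr (-2.28 ± 0.33), mirr (-1.25 ± 0.12) and Ser (-0.47 ± 0.17), and these 3 were called higher in yki3SA sd- against yki3SA. The same 3 were called higher there without the 4 libraries that stand apart, and ara and caup lower. In the optix model ara was called lower (-0.92 ± 0.22), 1 of 6, against 10.5% of all genes. None was called in sd- against ctrl or in yki3SA sd- against sd-. Among all genes 13.5% were called lower and 10.6% higher in the eyFLP comparison, and 17.1% lower in the MARCM one. In yki3SA sd- against yki3SA 24.9% were called higher. Without the 4 libraries that stand apart 20.9% were called higher there and 21.9% lower.

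Genes of the JNK and damage response, which is known to induce upd genes in discs, were listed as well. In eyFLP wts- 8 of 11 were called higher and 1 lower, in MARCM yki3SA 8 higher and 1 lower, in optix yki3SA 3 higher and 1 lower, and in yki3SA sd- against yki3SA 1 higher and 8 lower (5 lower without the 4 libraries that stand apart). Among all genes 10.6% were called higher and 13.5% lower in the eyFLP comparison, 17.3% and 17.1% in the MARCM one, and 9.02% and 10.5% in the optix one. In yki3SA sd- against yki3SA 28.1% were called lower and 24.9% higher. Without the 4 libraries that stand apart these were 21.9% and 20.9%. The hormone gene Ilp8 changed by 6.74 ± 0.42 in eyFLP wts- and 3.01 ± 0.41 in MARCM yki3SA, and had a change of 0.75 ± 0.63 without a call in optix yki3SA (adjusted p = 0.436). The lower gene in the eyFLP, MARCM and optix comparisons was egr, the ligand gene of the pathway (-2.56, -1.53 and -1.76 on the log2 scale). Of 12 other targets of Yki tested, 6 were called higher and 2 lower in eyFLP wts-, 8 higher and none lower in MARCM yki3SA, and 5 higher and 1 lower in optix yki3SA. Among them kibra, an upstream gene of the Hippo pathway, rose by 2.29 ± 0.12 in eyFLP wts-, 3.09 ± 0.12 in MARCM yki3SA and 1.74 ± 0.12 in optix yki3SA. In yki3SA sd- against yki3SA 8 of 12 were called lower and none higher. Without the 4 libraries that stand apart 7 were called lower and 1 higher, against 21.9% lower and 20.9% higher among all genes. The Yki list shares crb with the genes raised by JAK-STAT and wg with those lowered by it, and the JNK list shares Mmp1 with the former. How far JNK signalling or direct action of Yki accounts for the values of the 7 genes was not tested.

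Markers of other cell types moved with some of the same comparisons. Of the hemocyte markers 6 of 8 were called lower in MARCM yki3SA, where they summed to 55.2 to 64.3 CPM in run 1, against 118 to 216 CPM in ctrl. In optix yki3SA 4 of 7 were called lower (sums 75.5 to 96.9 CPM, against 159 to 284 CPM in ctrl), and in eyFLP wts- none of 7 (54.7 to 69.3 CPM, against 61.9 to 119 CPM). In yki3SA sd- against yki3SA 7 of 8 were called higher, and 5 of 8 without the 4 libraries that stand apart. Of the 10 eye-antennal markers 9 were called lower in eyFLP wts-, 10 in MARCM yki3SA and 5 in optix yki3SA (1 higher), and 9 were called higher in yki3SA sd- against yki3SA (10 without those 4 libraries). Of the other marker lists, in MARCM yki3SA against ctrl 4 of 7 fat body genes were lower, 1 of 7 muscle and myoblast genes was higher and 2 lower, 2 of 4 glial genes were higher and 2 lower, 1 of 3 tracheal genes was higher and 1 lower, and 1 of 3 wing disc genes was higher. In eyFLP wts- against ctrl 1 fat body gene was lower, 1 muscle gene higher, 2 glial genes higher and 1 lower, no tracheal gene called and 1 wing disc gene higher. In the optix model 1 glial and 1 wing disc gene were higher. Among all genes 17.3% were called higher and 17.1% lower in MARCM yki3SA, and 10.6% and 13.5% in eyFLP wts-. In optix yki3SA these were 9.02% and 10.5%. In yki3SA sd- against yki3SA 24.9% were called higher, and 20.9% without the 4 libraries that stand apart. A count of 1 in a short list is close to such shares. The part of the marker shifts in the levels of the 7 genes was not tested.

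Across the 33 libraries, with each gene's log2(CPM + 1) centred on the mean of its model and run, os, upd2 and upd3 had Pearson correlations of 0.94 to 0.96 with one another. Socs36E correlated with the ligands at 0.87 to 0.88, dome at 0.54 to 0.61, hop at -0.37 to -0.30 and Stat92E at -0.17 to -0.05. These values describe libraries that share group, depth and disc composition, and most of the spread lies between the groups. Among 6726 genes that averaged 5 CPM or more, those most like os were nahoda, CG14608 and CG17104 (r = 0.97, 0.96 and 0.96). Those most like upd2 were vir-1, spin and CG1146 (0.96, 0.95 and 0.95), and those most like upd3 were nahoda, Rcd2 and vir-1 (0.96 each). Those most like dome were nop5, Nop56 and 14-3-3zeta (0.96, 0.95 and 0.95), of which the nop genes encode parts of nucleolar RNA-modifying particles. Those most like hop were Trn, sina and CG42668 (0.97, 0.97 and 0.96). For Socs36E they were CR45018, CG34383 and CG18507 (0.92, 0.91 and 0.91), and for Stat92E olf413, Doa and shot (0.80, 0.74 and 0.73).

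**Figure D5:**
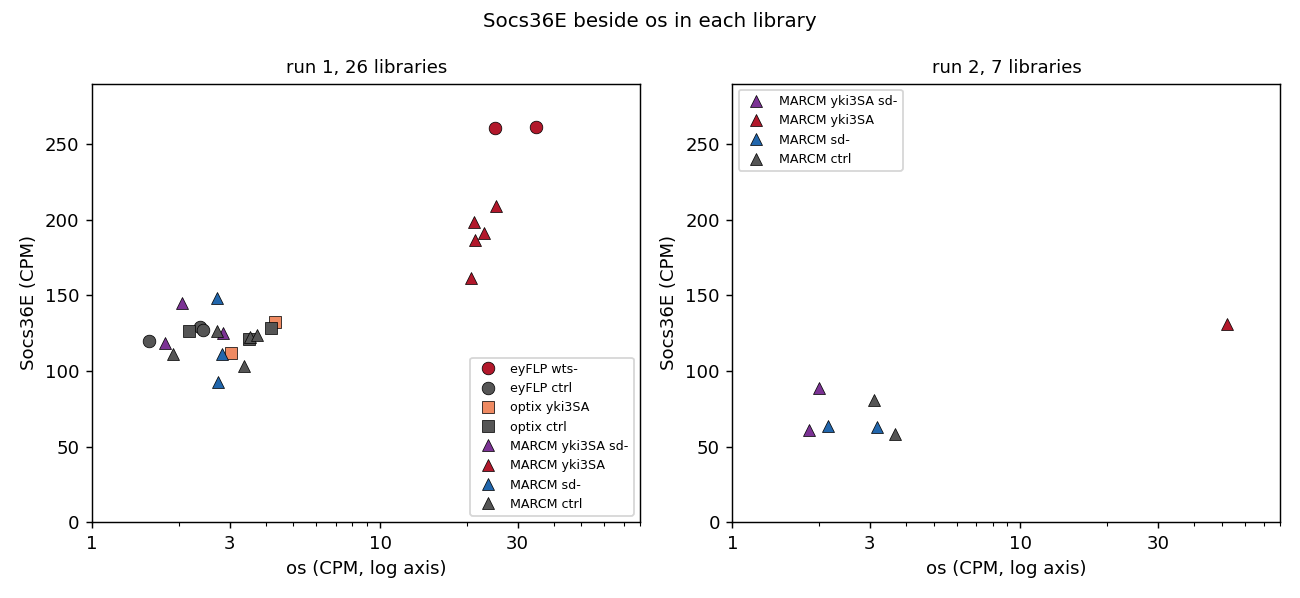
Socs36E (CPM, linear axis) against os (CPM, log axis), 1 point per library, for run 1 (left) and run 2 (right), with the model shown by the shape. In run 1 the 7 eyFLP wts- and MARCM yki3SA libraries lie at the upper right, with Socs36E from 162 to 261 CPM, and the other 19 lie at 92.5 to 148 CPM. In run 2 the single yki3SA library has 131 CPM, and the other 6 have 58.5 to 88.5 CPM.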

How the data were processed

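RNA of whole eye-antennal discs was made into 3' mRNA libraries (QuantSeq FWD), per the labels' protocols, with polyA RNA named for run 1 and total RNA for run 2. The deposited values are raw counts per gene, made by the authors with FastQC, cutadapt and STAR 2.6.1d against dm6, per the submitters' processing notes. How reads were counted, with which tool, strand option and gene models, is not given here, so reads of Socs36E and its antisense partner cannot be told apart, and 3' counts are not comparable between genes. No column of per-sample values was left unused.

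Groups were taken from the labels. One edgeR quasi-likelihood fit (edgeR 4.0.16, R 4.3.3, TMM, filterByExpr) held the 20 eyFLP, optix and run 1 MARCM libraries (8693 genes tested) and gave the eyFLP and optix comparisons and the differences between models. The other held the 23 MARCM libraries with run as a term (8927 genes) and gave the MARCM comparisons and the interaction. P-values were adjusted by Benjamini-Hochberg over all genes tested, with a threshold of 0.05. Each standard error is approximate, being the log2 fold change divided by the root of its F value. Where a group had a single library in a run, it was assumed to vary like the others. Intervals of count ratios are exact and cover counting error only. The test was run on simulated counts with known changes: for eyFLP wts- against ctrl it called 50 of 50 genes at a log2 change of 2 and 50 of 50 at -2, 21 of 50 at 1, 16 of 50 at -1 and 9 of 8157 unchanged ones. For MARCM yki3SA against ctrl these were 50, 50, 50 and 49 of 50, and 8 of 8499. The simulated counts had the same dispersion of 0.05 in every gene, no effect of run and no libraries that stand apart. Changes were planted only in genes above a minimum mean level. These rates thus do not speak to genes with as few counts as upd2 and upd3 had in the controls. Alternatives used other scaling, filters, DESeq2 1.42.0, limma-voom (limma 3.58.1), a replicate block, subsets of libraries and single libraries left out.

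Same-numbered run 1 MARCM yki3SA and ctrl libraries deviated together, with correlations of 0.199 to 0.527 in 5 pairs. Some differently numbered ones did so as well, at 0.53 for ctrl library 4 with yki3SA library 5 and 0.256 for ctrl library 3 with yki3SA library 2. Others were negative, down to -0.473 for ctrl library 3 with yki3SA library 5. All pairs within libraries 1 to 3 were positive (0.061 to 0.283), as were all pairs within libraries 4 and 5 (0.244 to 0.53). All pairs across these sets were negative (-0.143 to -0.473). These libraries thus fall into sets, seen only afterwards, while pairing by single numbers is not settled. The main fits had no term for the sets, and the replicate block had one for library number. The named genes are the 7 genes, the manipulated genes, the called genes of largest change in each list and the 3 genes most like each of the 7. The 7 genes and the lists of pathway, target, JNK, Yki and cell type marker genes were chosen with earlier results of these data known.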

Additional observations from a re-analysis of the deposited data

Results flagged for a closer look

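In 5 of 28 sets of a gene and a group with 4 to 10 libraries, 1 library lay far from the others. Chance alone sets a library apart in about 1 in 20 such sets, a rate that takes no account of the MARCM groups holding libraries of both runs and, for yki3SA and ctrl, of 2 genotypes. The os level of run 1 MARCM yki3SA sd- library 2 was 2.85 CPM, against 1.79 to 2.05 CPM in the others of its group. In MARCM yki3SA the single run 2 library stood at 52.0 CPM of os, against 20.7 to 25.3 CPM in run 1, and at 158 CPM of Stat92E, against 86.8 to 96.0 CPM. All 7 run 2 MARCM libraries had 134 to 158 CPM of Stat92E, whatever their group, and the run 1 MARCM libraries had 86.8 to 125 CPM. The upd2 level of run 2 MARCM ctrl library 1 was 0.658 CPM, against 0.109 to 0.321 CPM in the other ctrl libraries. The dome level of run 1 MARCM sd- library 3 was 171 CPM, against 125 to 136 CPM in the other sd- libraries, and this is the sd- library that stands apart in roX1 and yki.

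In 13 cases a test of the difference between responses passed the threshold, in edgeR's test over all genes. The yki3SA response in sd- clones minus that without sd- was -3.55 for os, -5.58 for upd2, -4.19 for upd3, -0.57 for Socs36E and 0.95 for hop, on the log2 scale. The optix yki3SA response minus the MARCM yki3SA response was -2.71 for os, -6.16 for upd2, -0.64 for dome and -0.73 for Socs36E. The wts- response minus the optix yki3SA response was 3.63 for os, 5.48 for upd2, 4.53 for upd3 and 1.08 for Socs36E. Among these, the hop and Socs36E differences in sd- clones, the upd3 difference between wts- and optix yki3SA and the dome difference between optix and MARCM yki3SA lost their call under some alternatives.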

How the results depend on the processing

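Of 1431 values of the 7 genes recomputed under alternatives, 1363 kept their side of the threshold, 41 lost a call, 27 gained one and none reversed a call, while 38 that were called in neither setting changed sign. Group levels were also recomputed as CPM by library total alone, and the most-like genes with Spearman rho and with the 23 MARCM libraries alone. Of these values 62 moved and 36 did not. A level was said to move where its mean changed by more than its SD, or by more than counting error for a single library. The most-like genes were said to move where fewer than 2 of 3 stayed. Levels and most-like genes thus depend on these choices. The calls of os, upd2, upd3, dome and Socs36E in MARCM yki3SA against ctrl were unchanged without any 1 library (5 called in each). The filter at a mean of 10 CPM removes the ligand genes from the test. There 2 of the 7 were called in eyFLP wts- and in MARCM yki3SA, and 1 in wts- minus optix yki3SA. In yki3SA sd- against yki3SA 3 were called, where Stat92E gained a call (adjusted p = 0.0346 in edgeR's test). In the interaction 1 was called, where Socs36E also lost its call (adjusted p = 0.0569 in edgeR's test). Under this filter the genes called among all numbered 1391 in eyFLP wts- (2090 in the main analysis), 1132 in optix yki3SA (1699), 1876 in MARCM yki3SA (3070), 1545 in the interaction (2494), and 1 each in sd- against ctrl (9) and in yki3SA sd- against sd- (12). In optix yki3SA 2 of the 7 were called with upper-quartile scaling and with DESeq2, and 0 with limma-voom. With the optix libraries fitted alone 0 of the 7 and 554 genes were called there. With the eyFLP and optix libraries fitted alone 393 genes were called in wts- minus optix yki3SA (712). DESeq2 called 18 genes in sd- against ctrl and 140 in yki3SA sd- against sd-. With the replicate block these were 2 and 4 genes, and MARCM yki3SA against ctrl had 2764 genes and 5 of the 7. The block ended the calls of upd3 in optix yki3SA (adjusted p = 0.102) and in wts- minus optix yki3SA (adjusted p = 0.191) and of hop in the interaction (adjusted p = 0.0722), and added hop in optix yki3SA (adjusted p = 0.0283) and dome in wts- minus optix yki3SA (adjusted p = 0.0423), in edgeR's test. Run 1 alone called 18 genes in sd- against ctrl and 1429 genes and 3 of the 7 in yki3SA sd- against sd-. Run 2 alone called 5452 genes in MARCM yki3SA, 423 in sd-, 331 in yki3SA sd- against sd- and 4970 in the interaction. Leaving out together the 4 libraries that stand apart, an alternative chosen after seeing the data, gave 4790 genes in MARCM yki3SA and 86 in yki3SA sd- against sd-. Apart from the removal of genes by the filter, the cause of these changes was not tested.

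Leaving out 1 library at a time gave 818 to 2199 genes and 0 to 1 of the 7 in optix yki3SA, 6 to 31 genes in yki3SA sd- against sd-, 3 to 5 of the 7 in the interaction, 423 to 737 genes and 0 to 1 of the 7 in wts- minus MARCM yki3SA (740 and 0), 756 to 1977 genes in optix minus MARCM yki3SA (1371) and 436 to 889 in wts- minus optix yki3SA. The hop interaction lost its call in 10 of 23 such fits and fell to 0.60 without run 1 yki3SA sd- library 2 (adjusted p = 0.0535). The Socs36E interaction lost it without run 1 sd- library 1 (adjusted p = 0.0529) or 3 (adjusted p = 0.0741), and upd3 in wts- minus optix yki3SA in 8 of 10. Without MARCM ctrl library 4 os differed between wts- and MARCM yki3SA (adjusted p = 0.0489), and without eyFLP ctrl library 2 upd3 did (5.10, adjusted p = 0.0254). Depth limits upd2 and upd3 most, which had fewer than 10 counts in 19 and 22 of the 25 libraries outside eyFLP wts- and MARCM yki3SA.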
